A study of Rattus norvegicus with 14 samples.

Results

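This account covers 10 genes of blood vessel growth and endothelial identity in rat muscle: the angiopoietin ligands Angpt1 and Angpt2, the Tie receptors Tek and Tie1, the growth factor Vegfa with its receptors Kdr and Flt1, and the endothelial surface or storage proteins Pecam1, Cdh5 and Vwf. The genes were listed by name, but with earlier results of these data known, so the choice was not blind to these arrays. They were read by 14 probes among 26391 tested, which stood for 17432 genes, and each gene is given by its brightest probe unless stated. All 14 probes were well above background on all 14 arrays, so no member was lost to the filter on dim probes.

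Angiopoietin-1 is made mainly by cells that surround vessels and activates Tek (Tie2) on endothelial cells, which favours quiet, tight vessels. Angiopoietin-2 is stored and released by endothelial cells and is mostly an antagonist of Tek, so it loosens vessels, and Tie1 is an orphan receptor that modulates Tek. VEGF-A, secreted by muscle fibres among other cells, drives capillary growth through Kdr (VEGF receptor 2), while Flt1 (VEGF receptor 1) binds VEGF-A tightly and limits its action.

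The probes for the ligands and their receptors are shown because the results below compare these genes. All are 60 bases long and are given 5′ to 3′ from the deposited array files. The capitals mark the longest run that the probes of Angpt1 and Angpt2 share, 6 bases that occur once in each.
Angpt1: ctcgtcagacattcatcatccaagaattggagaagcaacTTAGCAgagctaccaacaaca
Angpt2: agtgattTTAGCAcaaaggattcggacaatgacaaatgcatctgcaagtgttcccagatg
Tek: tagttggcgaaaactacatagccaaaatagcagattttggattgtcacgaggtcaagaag
Tie1: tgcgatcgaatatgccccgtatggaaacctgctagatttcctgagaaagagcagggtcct
The files place them on rn4 at chr16:75939239-75939298 (plus strand) for Angpt2, chr5:115178576-115178635 (plus strand) for Tek and chr5:138950263-138950322 (minus strand) for Tie1. For Angpt1 they give only 6 bases, chr7:78195504-78195509 (minus strand), for a probe of 60. Across the 84 pairs of member probes that read different genes, the longest shared run on the strand printed was 10 bases. Runs shared between probes do not show whether a probe also binds another gene's transcript, which was not tested. Whether a probe lies in coding or untranslated sequence was not assessed here, since no annotation of rn4 was used.

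The muscle was the plantaris, a fast-twitch muscle of the calf, of Wistar rats. The 3 groups were rats fed 1000 IU of vitamin D per kg of chow (control, n = 4), rats fed chow lacking vitamin D (depletion, n = 6), and rats fed the lacking chow first and a restored one afterwards (repletion, n = 4). How much vitamin D the last 2 groups received, for how long they were fed, and the age and sex of the rats are not stated in the labels. Each muscle is called a biological replicate in its title and was hybridised in 1 colour to 1 array. Depletion replicate 1 is in doubt, because its diet field names the repletion diet against its title. It was kept as depletion, and values without it are given for each member whose difference then turned in sign or moved by more than 0.1.

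A level below is the log2 signal of a probe relative to the 75th percentile of its own array, so that a level of 1 is double a level of 0. Levels of different probes are not comparable with each other. A group level is a mean ± SD, and a difference is a log2 difference ± SE from limma's fit of the 3 diets with slide as a block, so it can depart from the gap between raw group means. Well above background were 82.8% to 88.1% of spots, the number of arrays limits the precision, and Pearson's r between arrays lay between 0.956 and 0.991. The 5 slides held arrays of 2 or 3 diets each, but the position on the slide nearly followed diet. Of the control arrays 3 of 4 sat at position 1, of the repletion arrays 3 of 4 at position 2, and of the depletion arrays 4 of 6 at position 3. Skeletal muscle fibre markers were above background on every array for 10 of 10 genes, as were 35 of 35 endothelial markers other than the members.

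No member passed the test in any comparison. With limma and Benjamini-Hochberg adjustment over all 26391 probes, 0 of 10 members had an adjusted p under 0.05, against 0% of all probes in depletion against control, in repletion against depletion and in repletion against control. The lowest adjusted p of any probe was 0.836, 0.935 and 1.00 in that order. At an unadjusted p under 0.05, 2 of 10 members stood out in depletion against control (Kdr higher, Angpt2 lower) where 4.81% of all probes did. In repletion against depletion 2 of 10 did (Angpt1 higher, Pecam1 lower) against 3.44%, and in repletion against control 1 of 10 did (Angpt2 lower) against 1.98%. These counts are too small to set the members apart from the rest of the array. Each share over all probes lay below the fraction of 0.05 that chance alone would give at this threshold. All 3 comparisons share groups, so they are not independent of each other.

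In depletion against control 3 members were higher and 7 lower, with a median log2 difference of -0.13 beside -0.02 over all genes. In repletion against depletion 6 were higher and 4 lower, with a median of 0.04 beside 0.03 over all genes. In repletion against control 5 were higher and 5 lower, with a median of -0.02 beside 0.02. Over all genes 46.6%, 58.3% and 54.6% were higher in the 3 comparisons, in that order. The 7 endothelial genes among the members (Tek, Tie1, Kdr, Flt1, Pecam1, Cdh5 and Vwf) had medians of -0.03, 0.02 and -0.04 in the same order, with 3, 4 and 3 of the 7 higher. The RNA came from whole muscle, so fewer endothelial cells and less of a transcript per cell cannot be told apart.

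**Figure D1:**
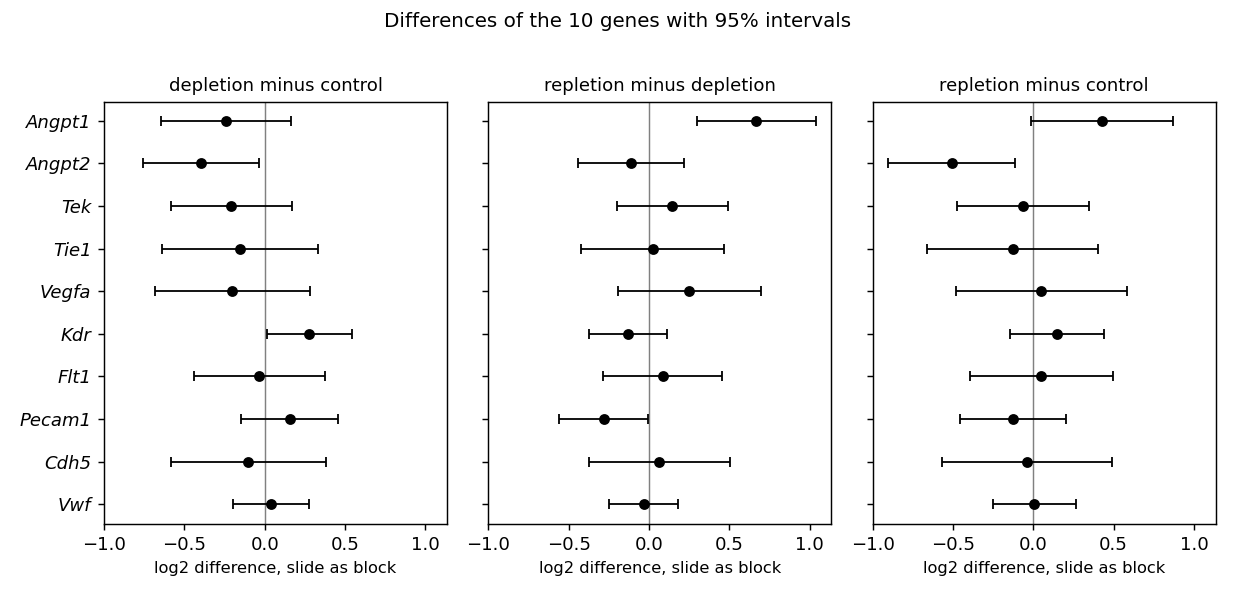
Log2 differences of the 10 genes (horizontal axis) in the 3 comparisons, from limma's fit with slide as a block; points are the estimates and bars the 95% intervals, before any adjustment for the number of probes. The intervals of Angpt1 and Pecam1 in repletion against depletion, of Kdr and Angpt2 in depletion against control and of Angpt2 in repletion against control do not reach 0, and no adjusted p was under 0.05.

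Angpt1, the Tek agonist, had the widest gap between diets of the 10 genes, between repletion and depletion. Its level was -2.15, -1.69, -1.71 and -1.80 in the control muscles and -1.23, -1.38, -1.39 and -1.75 in the repletion muscles. In the depletion muscles it ran from -2.39 through a median of -2.16 to -1.68. Of the repletion muscles 3 of 4 lay above every control and depletion muscle, and replicate 4 lay within the control range and below depletion replicate 3. Control and depletion overlapped.

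The mean level of Angpt1 was -1.44 ± 0.22 (SD, n = 4) after repletion against -2.10 ± 0.25 (SD, n = 6) in depletion. The log2 difference was 0.67 ± 0.16, a 1.59-fold higher signal, with a 95% interval of 0.30 to 1.04. Its unadjusted p of 0.0026 (limma) ranked 29 of 26391 probes. Over that many probes a p of this size is no rarity, and limma's adjusted p was 0.935. The difference was positive on each of the 4 slides that held both diets, at 0.90, 0.59, 0.64 and 0.44. Leaving out 1 array at a time gave 0.57 to 0.75, and the fit without depletion replicate 1 gave 0.65 ± 0.18.

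Against control (-1.84 ± 0.21, SD, n = 4), Angpt1 differed by -0.24 ± 0.18 in depletion and by 0.43 ± 0.20 after repletion, with limma's adjusted p at 0.840 and 1.00. The depletion value was negative on 3 of 3 shared slides and the repletion value positive on 2 of 2. With position on the slide added as a second block, the repletion difference from control went to -0.02 and the depletion difference to -0.95, while repletion minus depletion was 0.93 ± 0.27. The part of position in these values was not tested, and position and diet can be told apart only through the few arrays that break the pattern. Diet accounted for a share of 0.640 of the variance of Angpt1 over the 14 arrays and slide for 0.112.

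Cell types that make Angpt1 are read by other genes of the array. In repletion against depletion, 58.3% of all genes were higher, with a median difference of 0.03. Of the markers, 10 of 12 of pericytes and smooth muscle (median 0.16) and 8 of 8 of fibroblasts (median 0.39) were higher. Among them, Dcn (decorin, a matrix proteoglycan of fibroblasts) differed by 0.37 ± 0.14 and Abcc9, a potassium channel subunit of pericytes, by 0.37 ± 0.14, and neither passed (adjusted p = 0.935 for both, limma). The summed signal of the fibroblast list, in multiples of the 75th percentile, was 27.6 to 48.2 after repletion, 23.1 to 43.2 in depletion and 31.4 to 57.9 in control. That of the pericyte list was 12.0 to 15.9, 10.3 to 15.5 and 11.4 to 15.2. The summed levels overlapped between all diets, and their part in the Angpt1 difference was not tested.

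Angpt2, the Tek antagonist, was lower than control in both other diets before adjustment. Its level was -2.90, -3.33, -2.81 and -3.36 in control muscles and -3.88, -2.86, -3.44 and -4.03 in repletion muscles. The 6 depletion muscles ran from -3.86 through a median of -3.44 to -3.03. The 3 groups overlapped, and repletion held both the lowest array of all (replicate 4) and one of the highest (replicate 2).

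The mean level of Angpt2 was -3.10 ± 0.29 (SD, n = 4) in control, -3.45 ± 0.31 (SD, n = 6) in depletion and -3.55 ± 0.53 (SD, n = 4) after repletion. Depletion minus control was -0.40 ± 0.16 (a 1.32-fold lower signal, 95% interval -0.76 to -0.04, limma's adjusted p = 0.836). Within slides it was -0.48, -0.46 and -0.31. Repletion minus control was -0.51 ± 0.18 (1.42-fold lower, -0.90 to -0.11, adjusted p = 1.00), but the shared slides gave -0.76 and -0.06. Repletion minus depletion was -0.11 ± 0.15. With position as a second block the depletion difference from control was 0.01, and without any block it was -0.35.

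**Figure D2:**
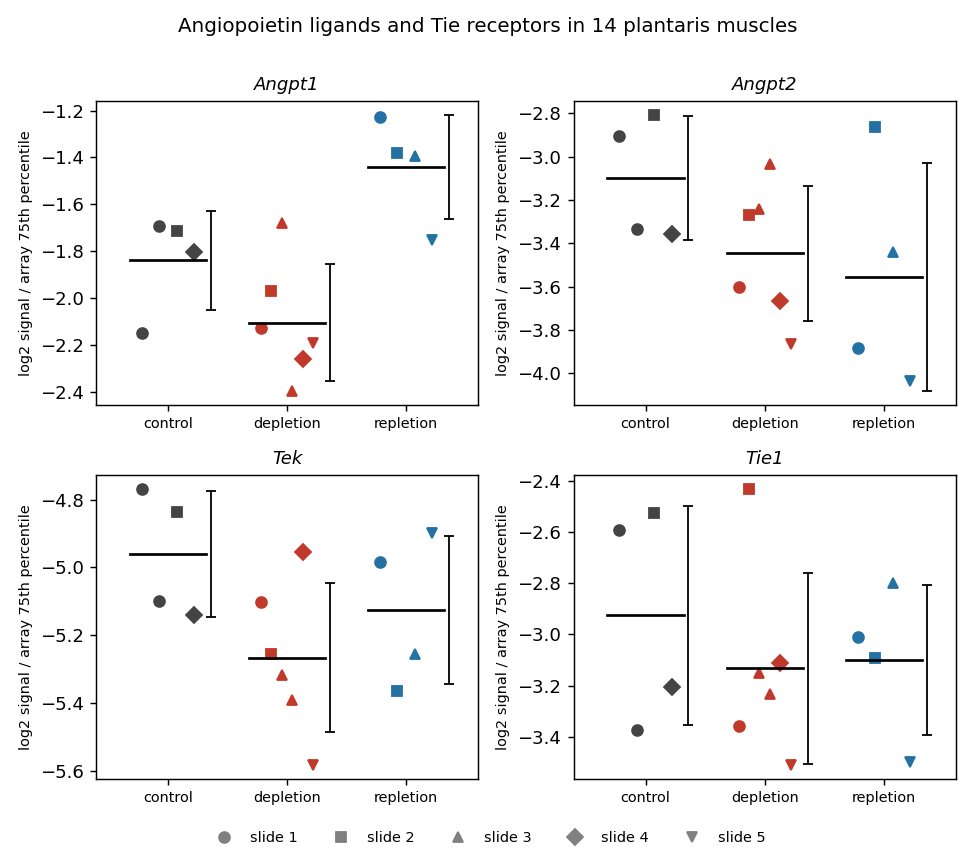
Log2 signal relative to the array's 75th percentile (vertical axis) of Angpt1, Angpt2, Tek and Tie1 in each of 14 muscles; colour and column give the diet, symbol the slide, horizontal lines the group means and the bars beside them 1 SD. For Angpt1, 3 of the 4 repletion muscles lie above all others, from -1.39 to -1.23; for Angpt2, Tek and Tie1 the diets overlap.

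The balance of the ligands was followed as Angpt2 minus Angpt1 within each array; only its change between diets can be read, not its size. It was -0.76, -1.64, -1.09 and -1.55 in control and -2.66, -1.48, -2.04 and -2.28 after repletion, and in depletion it ran from -1.67 through a median of -1.44 to -0.64. All repletion muscles but replicate 2 lay below every control and depletion muscle. The repletion mean was 0.77 log2 units below depletion (difference -0.77, exact two-sided permutation p = 0.0143 over 210 arrangements, smallest possible 0.0048; adjusted over the 3 diet comparisons p = 0.0429). This balance was picked with earlier results of these data known, so the p is no independent evidence.

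Slide and single arrays bear on that value. On the shared slides it was -1.18, -0.18, -0.94 and -0.61, and the exact permutation test within slides gave p = 0.0833 (smallest possible 0.0417). With 1 array left out the adjusted p was under 0.05 in 2 of 10 fits and reached 0.214 without repletion replicate 1, so the call does not hold against single arrays. Repletion minus control was -0.85 (exact permutation p = 0.0857, adjusted p = 0.129), and without repletion replicate 2 it was -1.07, with an adjusted p of 0.0429. Depletion minus control was -0.08 (exact permutation p = 0.719).

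Tek, the angiopoietin receptor, was a dim probe with levels of -4.77, -5.10, -4.84 and -5.14 in control and -4.98, -5.36, -5.25 and -4.90 after repletion. The lowest depletion muscle was at -5.58, the median at -5.29 and the highest at -4.95. Every group overlapped the others, although 5 of 6 depletion muscles lay below the control mean. Depletion minus control was -0.21 ± 0.17, repletion minus depletion 0.14 ± 0.15 and repletion minus control -0.06 ± 0.18. The intervals, -0.59 to 0.17, -0.20 to 0.49 and -0.48 to 0.35, leave room for changes of either sign.

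Tie1, the orphan partner of Tek, had levels of -2.59, -3.37, -2.53 and -3.21 in control and -3.01, -3.09, -2.80 and -3.50 after repletion. Depletion muscles ranged from -3.51 to -2.43 with a median of -3.19. The range within control alone covered most of the values of the other diets. The differences were -0.15 ± 0.22 for depletion minus control, 0.02 ± 0.20 for repletion minus depletion and -0.13 ± 0.24 for repletion minus control. Without depletion replicate 1 the first was -0.05 ± 0.25 and the second -0.05 ± 0.22. Repletion minus depletion was of the other sign under 10 of 24 alternative settings.

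Vegfa was read by 4 probes on the plus strand of chromosome 9, numbered here by position: probe 1 starts at 10527602 (rn4) and probes 2, 3 and 4 start 949, 4370 and 8331 bases beyond it. Probe 4, the brightest, had levels of 4.64, 4.23, 3.81 and 4.17 in control and 4.31, 4.47, 4.06 and 4.40 after repletion. The 6 depletion muscles ran from 3.62 through a median of 4.06 to 4.35. The groups overlapped, with the highest array in control and the lowest in depletion.

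By the brightest probe, depletion minus control was -0.20 ± 0.22, repletion minus depletion 0.25 ± 0.20 and repletion minus control 0.05 ± 0.24, with limma's adjusted p at 0.875, 0.935 and 1.00. All 4 probes were lower in depletion than in control, by -0.48, -0.32, -0.30 and -0.20 from probe 1 to probe 4, and higher after repletion than in depletion, by 0.44, 0.29, 0.22 and 0.25. They read one gene in the same muscles and followed each other across arrays (Pearson's r 0.722 to 0.921 between pairs, 14 arrays), so they are not separate evidence.

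The lower Vegfa level in depletion depended on single arrays, among them 1 muscle whose diet is in doubt. Depletion replicate 1 was the lowest of all 14 arrays on 4 of 4 Vegfa probes, at 3.62 on the brightest where the next lowest array had 3.81, and at 1.69 on probe 2 where the next had 2.30. Without it, depletion minus control was -0.15, 0.03, 0.04 and 0.03 over the probes, and repletion minus depletion 0.23, 0.07, 0.0059 and 0.10. Repletion minus control was then 0.08, 0.10, 0.05 and 0.13 in the same order, with an SE of 0.20 for the last, the brightest probe. The sign of depletion against control thus turned on 3 of 4 probes. Leaving out 1 array at a time moved the brightest probe's difference in both directions, from -0.49 to 0.030.

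**Figure D3:**
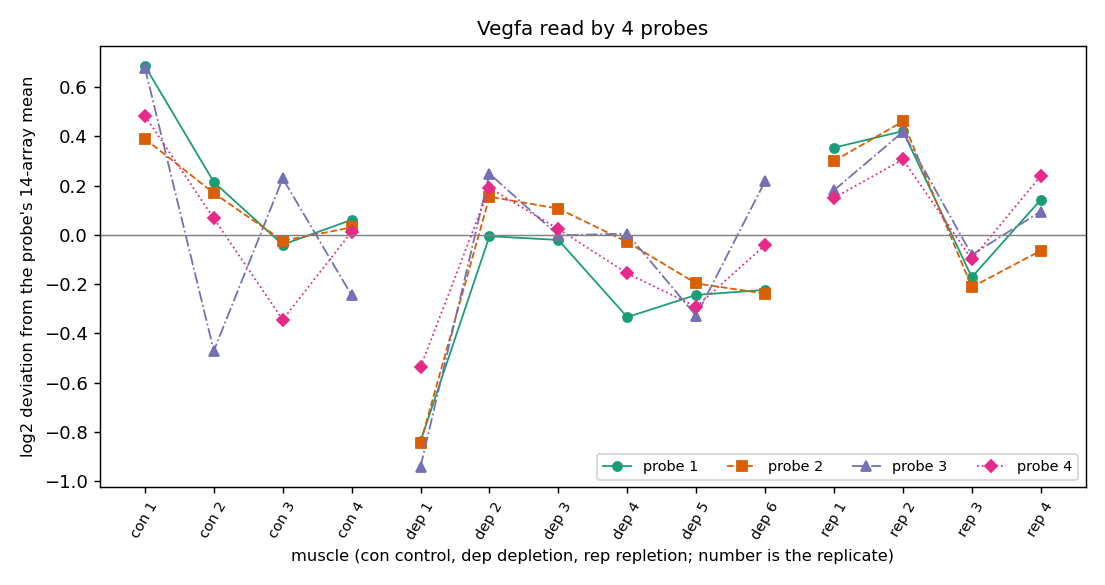
Log2 deviation of each Vegfa probe from its own mean over 14 arrays (vertical axis), by muscle; the 4 probes are numbered in order along the chromosome, and lines only join the points of a probe within a diet. Depletion replicate 1 is the lowest muscle on all 4 probes.

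Kdr, the main signalling receptor of VEGF-A, was the member with the highest depletion level relative to control. Its level was 1.57, 1.72, 1.77 and 2.02 in control and 1.92, 1.71, 2.18 and 1.48 after repletion. The lowest depletion muscle was at 1.83, the median at 2.04 and the highest at 2.24. All 6 depletion muscles lay above the control mean, yet control replicate 4 lay among them, and repletion covered the range of control and most of that of depletion.

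The mean level of Kdr was 2.04 ± 0.14 (SD, n = 6) in depletion and 1.77 ± 0.19 (SD, n = 4) in control. The difference was 0.28 ± 0.12, a 1.21-fold higher signal, with a 95% interval of 0.01 to 0.54 and limma's adjusted p at 0.836. It was positive on 3 of 3 shared slides, at 0.31, 0.34 and 0.22, but was 0.10 ± 0.32 with position as a second block. Repletion minus depletion was -0.13 ± 0.11 and repletion minus control 0.15 ± 0.13. The files give no genome position for the Kdr probe.

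Flt1, the decoy-like VEGF receptor, differed between slides more than between diets. Its level was -2.66, -2.54, -1.90 and -1.66 in control and -2.30, -2.15, -3.19 and -2.19 after repletion. Depletion muscles ranged from -3.21 to -1.94 with a median of -2.47. The 3 arrays of slide 3, from 2 diets, held the 3 lowest levels.

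Slide, fitted alone, accounted for a share of 0.840 of the variance of Flt1 and diet, fitted alone, for 0.101. With slide as a block, depletion minus control was -0.03 ± 0.18, repletion minus depletion 0.08 ± 0.17 and repletion minus control 0.05 ± 0.20. Without the block, repletion minus control was -0.27, so its sign rests on the slide term. Without depletion replicate 1, depletion minus control was -0.18 ± 0.19 and repletion minus control -0.0025 ± 0.19. The probe lies at chr12:7957094-7957153 (plus strand).

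Pecam1 (CD31), an adhesion protein of endothelial cell borders that platelets and leukocytes also carry, was lowest after repletion. Its level was 1.17, 0.91, 0.80 and 0.86 in control and 0.76, 0.62, 0.99 and 0.95 after repletion. The 6 depletion muscles ran from 0.97 through a median of 1.08 to 1.40. Depletion and repletion overlapped only between the lowest depletion muscle and the highest repletion muscle.

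The mean level of Pecam1 was 0.83 ± 0.17 (SD, n = 4) after repletion and 1.13 ± 0.16 (SD, n = 6) in depletion. Repletion minus depletion was -0.28 ± 0.12 (a 1.22-fold lower signal, 95% interval -0.56 to -0.0059, limma's adjusted p = 0.935). It was negative on 4 of 4 shared slides, from -0.45 to -0.08, and was -0.09 ± 0.20 with position as a second block. Depletion minus control was 0.15 ± 0.13 and repletion minus control -0.13 ± 0.15. The probe lies at chr10:96056219-96056278 (minus strand).

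Other cells that carry Pecam1 are also read by genes of the array. Of 7 platelet and megakaryocyte markers 2 were higher and 5 lower in repletion against depletion, with a median of -0.06. Of 11 leukocyte markers 5 were higher and 6 lower, with a median of -0.04. Over all genes 58.3% were higher, with a median of 0.03. In depletion against control 5 of 7 platelet and 10 of 11 leukocyte markers were higher, with medians of 0.18 and 0.48. There 46.6% of all genes were higher, and no marker of either list passed. The summed leukocyte signal was 16.0 to 20.9 after repletion and 9.6 to 29.1 in depletion, and the platelet sum was 0.85 to 1.43 and 0.78 to 1.87. The part of these cells in the Pecam1 level was not tested.

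Cdh5 (VE-cadherin), the adherens junction cadherin of endothelium, had nearly equal means in the 3 diets: -1.24 ± 0.22 (SD, n = 4) in control, -1.27 ± 0.42 (SD, n = 6) in depletion and -1.26 ± 0.20 (SD, n = 4) after repletion. Its level was -1.26, -1.38, -1.41 and -0.92 in control and -1.24, -1.55, -1.13 and -1.12 after repletion. The lowest depletion muscle was at -1.90, the median at -1.19 and the highest at -0.83. Depletion alone held both the lowest and the highest array, replicates 3 and 4, which lay on the same slide. The differences were -0.10 ± 0.21, 0.06 ± 0.20 and -0.04 ± 0.23 for depletion minus control, repletion minus depletion and repletion minus control. The probe lies at chr19:779665-779724 (minus strand).

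Vwf (von Willebrand factor), stored in endothelial granules and in platelets, varied by slide. Its level was 1.07, 0.74, 0.53 and 1.30 in control and 0.91, 0.45, 0.86 and 1.07 after repletion. Depletion muscles ranged from 0.58 to 1.35 with a median of 0.96. On slide 2 the muscles of all 3 diets were the 3 lowest, and on slide 4 both were the 2 highest.

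Slide, fitted alone, accounted for a share of 0.905 of the variance of Vwf and diet, fitted alone, for 0.040. The differences were 0.04 ± 0.11 for depletion minus control, -0.03 ± 0.10 for repletion minus depletion and 0.0064 ± 0.11 for repletion minus control. Their 95% intervals, -0.20 to 0.28, -0.25 to 0.18 and -0.25 to 0.26, are the narrowest among the members. Without depletion replicate 1, repletion minus control was -0.00057 ± 0.12. The brightest probe lies at chr4:161854702-161854761 (plus strand), and the other Vwf probe, at chr4:161854554-161854613, followed it across arrays (Pearson's r 0.915, 14 arrays).

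**Figure D4:**
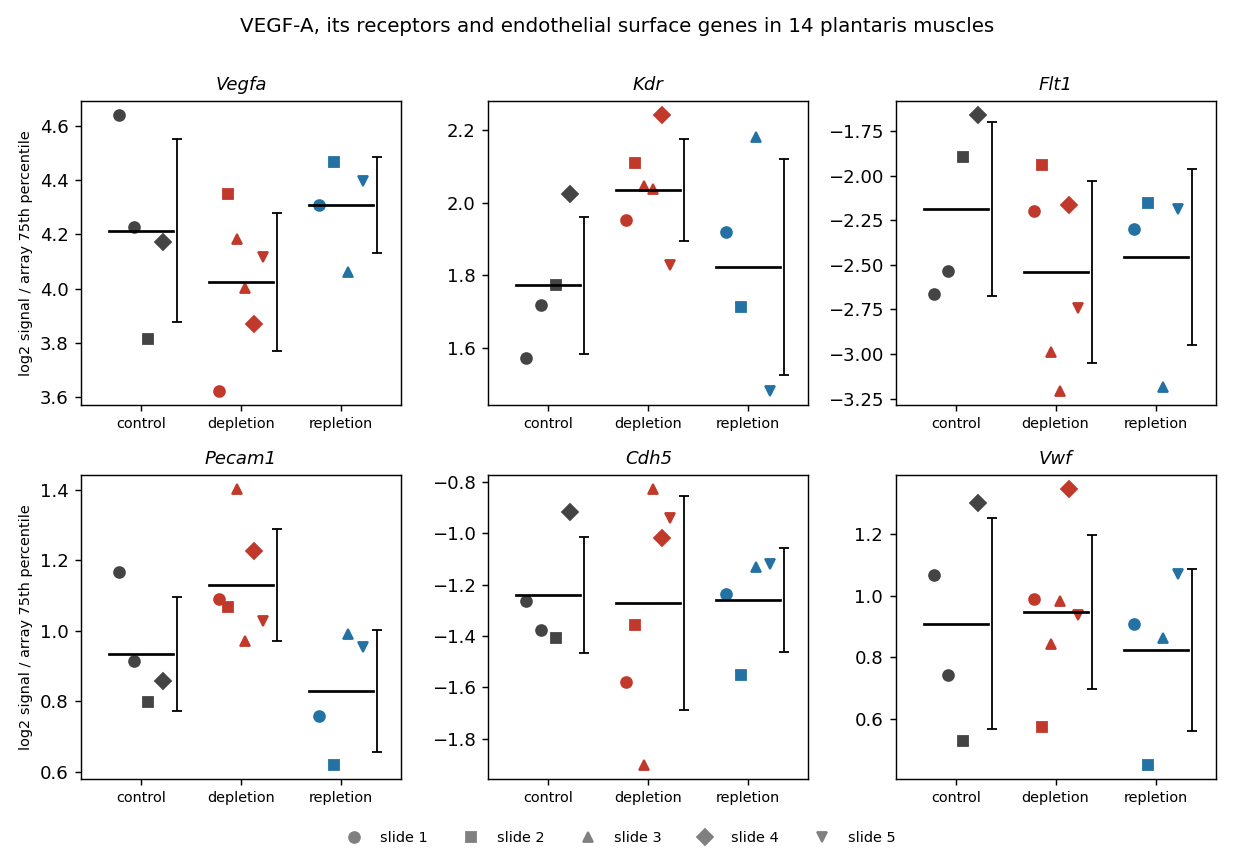
Log2 signal relative to the array's 75th percentile (vertical axis) of Vegfa, Kdr, Flt1, Pecam1, Cdh5 and Vwf in each of 14 muscles; colour and column give the diet, symbol the slide, horizontal lines the group means and the bars beside them 1 SD. The 3 triangles of Flt1 (slide 3) and the 3 squares of Vwf (slide 2) are the lowest whatever the diet, and for Pecam1 the repletion muscles (0.62 to 0.99) overlap the depletion muscles (0.97 to 1.40) only between 0.97 and 0.99.

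On slides that held both diets, the arrays compared share a slide. The fit with slide as a block draws on the same arrays, so these values are not separate evidence. In depletion against control, Angpt1 and Angpt2 were lower on 3 of 3 slides and Kdr, Pecam1 and Vwf higher on 3 of 3. In repletion against depletion, Angpt1 was higher and Pecam1 lower on 4 of 4 slides, and the other 8 members had slides of both signs. Vegfa ran from -0.81 to 0.54 over 3 slides in depletion against control, and Tie1 from -0.66 to 0.39 over 4 slides in repletion against depletion. Each such value compares 2 or 3 arrays and carries no test.

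**Figure D5:**
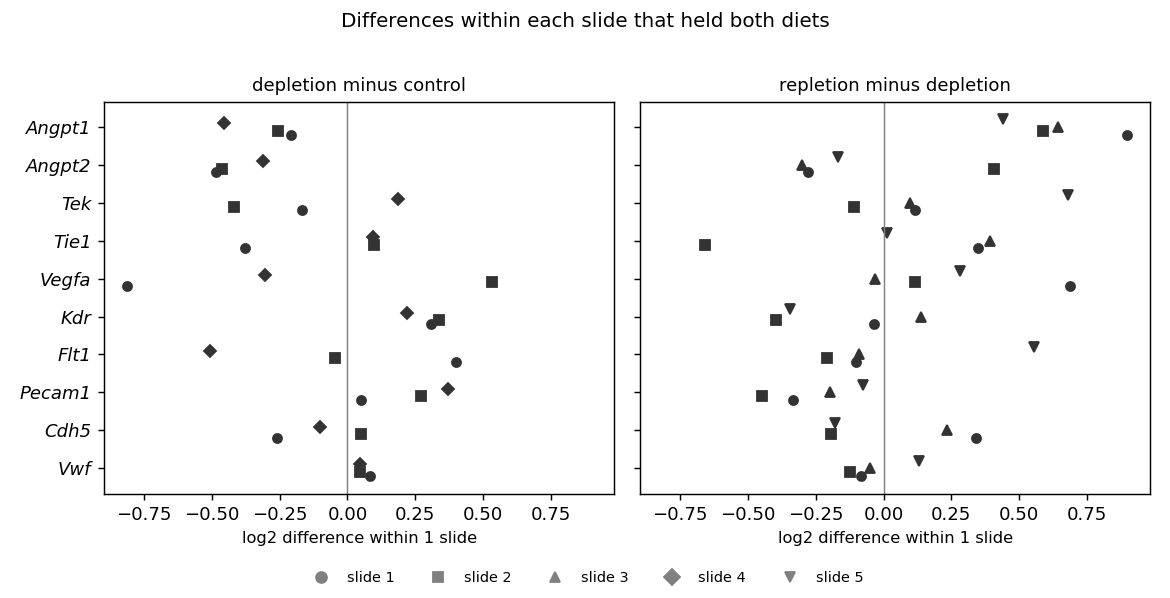
Log2 differences within single slides that held both diets (horizontal axis) for the 10 genes; each symbol is 1 slide. Angpt1 lies right of 0 on all 4 slides in repletion minus depletion and left of 0 on all 3 in depletion minus control, and most other genes have slides on both sides.

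The 7 endothelial genes were also followed as a group. Their mean deviation from each gene's average was 0.06 ± 0.14 (SD, n = 4) in control, -0.0012 ± 0.15 (SD, n = 6) in depletion and -0.05 ± 0.09 (SD, n = 4) after repletion, and the diets overlapped. The 2 arrays of slide 4 had a mean of 0.21, the highest of any slide. After slide means were removed, Pearson's r over 14 arrays between the 21 pairs of endothelial genes had a median of 0.13, with 13 pairs positive. These correlations are a description of 14 arrays that share slides, too few to settle whether the genes vary together.

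Of all 45 pairs of members, 26 were positive, the range was -0.73 to 0.53, and 0 passed Benjamini-Hochberg adjustment of exact permutations within slides (lowest adjusted p = 0.651), with 2 at an unadjusted p under 0.05. Angpt2 and Kdr had the lowest r, -0.73 (permutation p = 0.0145, Spearman's rho -0.70, permutation p = 0.0124), which was -0.66 without the 2 farthest arrays but -0.06 before slide means were removed. Tek and Tie1 had the highest r, 0.53 (permutation p = 0.0336, adjusted p = 0.755, rho 0.64, permutation p = 0.0177). It was 0.63 without the 2 farthest arrays and 0.34 before slide means were removed.

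The other genes of the VEGF and angiopoietin pathways showed no difference past the test. Of 29 measured partners, 0 were called in any comparison. In depletion against control 10 were higher and 19 lower (median -0.03, all genes -0.02), in repletion against depletion 16 and 13 (median 0.02, all genes 0.03), and in repletion against control 11 and 18 (median -0.04, all genes 0.02). Adm, which encodes adrenomedullin, a dilator peptide that acts on endothelium, was the partner with an unadjusted p under 0.05, at 0.39 ± 0.15 for repletion minus control (adjusted p = 1.00, limma).

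Among the ligands of that list, Vegfb, which binds Flt1, differed by -0.03 ± 0.14 in depletion minus control and by -0.22 ± 0.13 in repletion minus depletion. Vegfc, a ligand of Flt4, differed by -0.01 ± 0.16 and 0.21 ± 0.15 in the same order, and Pgf (placental growth factor) by 0.14 ± 0.32 and -0.14 ± 0.29. Among receptors and regulators, Nrp1, a coreceptor of Kdr, differed by -0.33 ± 0.15 and 0.23 ± 0.14. Ptprb (VE-PTP), a phosphatase that dampens Tek, differed by 0.09 ± 0.20 and -0.22 ± 0.18. Hif1a, the oxygen-sensitive activator of Vegfa, differed by 0.12 ± 0.20 and -0.15 ± 0.18, and Epas1 (HIF-2 alpha) by -0.14 ± 0.12 and 0.07 ± 0.11. No value of this paragraph passed.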

How the data were processed

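Trizol was used to extract total RNA of 14 plantaris muscles, and Cy3-labelled RNA was read on Agilent rat arrays, per the labels' protocols. The processed spot intensity in the deposited scanner files was made with Feature Extraction 11.5.1.1 (protocol GE1_1105_Oct12) and is background-subtracted, per the file headers. The authors' deposited series table holds log2 values for 26902 probes (5.662 to 19.423; column medians 8.418 to 8.491); how it was normalized is not stated, and it served only as an alternative. Groups came from the titles. Outlier spots (0.669% to 1.05% per array) were left out, spots of a probe averaged, and log2 of the processed signal set against the 75th percentile (1785 to 2389) of each array. Tests covered probes that 4 or more of the 14 arrays showed well above background and that had 2 or more values in each group, fitted with limma 3.58.1 (R 4.3.3), slide as a fixed block, and Benjamini-Hochberg adjustment at 0.05. All 14 member probes matched a RefSeq gene by accession. Correlations and figures used Python 3.11.15, numpy 2.4.6, pandas 2.3.3 and matplotlib 3.10.9. The fit was tested on simulated data, with errors drawn independently, for the size of planted changes and the share of false calls. How often it would call changes of the size described here is not given. Replicate numbers do not pair the arrays. With each diet's mean removed, same-numbered arrays of different diets correlated at -0.49 to 0.72, and the others at -0.60 to 0.72. The members, lists and tests were chosen with earlier results of these data known. The text names all 10 members, any pathway partner, and from each other list at most 3 genes by brightness and 3 by smallest unadjusted p per comparison. Alternatives were normexp correction, quantile normalization, the authors' values, other filters, no block or a random block, the replicate block, the mean of a gene's probes, the doubtful muscle moved or left out, and each array left out. The block for position on the slide, and for Angpt2 minus Angpt1 the slide blocks, the permutation within slides and the arrays left out, were added after the data were seen.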

Additional observations from a re-analysis of the deposited data

Results flagged for a closer look

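Of 42 groups of a probe's levels tested for a single array that stood apart (Dixon's test at the 95% level, which chance meets in about 1 of 20 groups), 2 did. Tie1 was highest in depletion replicate 2, at -2.43, where the next array of that group had -3.11. Flt1 was lowest in repletion replicate 3, at -3.19, where the next had -2.30; the other arrays of its slide, both depletion, were also low.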

How the results depend on the processing

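Over 25 settings, 657 of 726 member values kept their sign, 69 did not, and 0 members passed at any setting (lowest adjusted p 0.584). Repletion minus depletion of Angpt1 lay between 0.57 and 0.93 in all of them. Normexp moved the median of all probes by -0.14 in depletion and -0.12 in repletion against control, and values under it are to be read against those shifts. The cause of the sign changes that follow was not tested.

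For repletion minus depletion, Tie1 was -0.013 with normexp, -0.036 with quantile normalization, -0.027 with the authors' values, -0.075 with the doubtful muscle counted as repletion and -0.16 with slide and position, and Cdh5 was -0.015 and -0.39 under the last 2. For repletion minus control, Flt1 was -0.082 with normexp, -0.038 with the authors' values, -0.27 with no block and -0.11 with a random block (correlation 0.343). Vwf was -0.0096, -0.033, -0.086 and -0.041 under these and -0.018 with quantile normalization. Vegfa was -0.096 with the muscle moved and -0.024 over the mean of its probes, where Vwf was -0.0089. With slide and position, repletion minus control was -0.023 for Angpt1, 0.20 for Tek, -0.031 for Kdr and 0.30 for Cdh5, and depletion minus control was 0.014 for Angpt2, 0.032 for Tie1, 0.013 for Flt1, -0.15 for Pecam1 and 0.69 for Cdh5. That setting also called 1 probe with no gene name in depletion against control. The difference of this probe was -7.44 there and -0.65 with slide alone, so the setting can move a value far.

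The replicate block, with numbers that do not pair the arrays, called 0 probes and gave -0.062 for Vwf in depletion minus control, -0.056 for Tie1 in repletion minus depletion, and -0.27 for Flt1 and -0.086 for Vwf in repletion minus control. With each diet's mean removed, same-slide arrays of different diets correlated at 0.23 to 0.72. Arrays of different diets on different slides did so at -0.60 to 0.45.

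With 1 array left out, depletion minus control ran from -0.49 to 0.030 for Vegfa, -0.18 to 0.14 for Flt1 and -0.020 to 0.092 for Vwf. Repletion minus depletion ran from -0.0080 to 0.26 for Tek, -0.13 to 0.21 for Tie1, -0.049 to 0.18 for Flt1 and -0.077 to 0.18 for Cdh5. Repletion minus control ran from -0.16 to 0.096 for Tek, -0.27 to 0.10 for Tie1, -0.27 to 0.21 for Vegfa, -0.041 to 0.17 for Flt1, -0.14 to 0.036 for Cdh5 and -0.060 to 0.065 for Vwf.

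For Angpt2 minus Angpt1, leaving out 1 array gave -0.22 to 0.086 for depletion minus control, -0.98 to -0.59 for repletion minus depletion and -1.07 to -0.67 for repletion minus control. Within slide 4, depletion minus control was 0.14, within slide 2, repletion minus depletion was -0.18, and repletion minus control was -1.45 within slide 1 and -0.39 within slide 2. With slide and position as blocks the 3 values were 0.97, -1.28 and -0.31. All members were above background on all arrays, although Tek was dim. There were 4 to 6 arrays per diet, position nearly followed diet, and the diet of 1 muscle is in doubt. Which of these weighs most on the values was not tested.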

Other observations

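Markers of activated endothelium, which the report does not describe, were all above control in depletion, and 0 passed. Of these markers 6 of 6 were higher, with a median log2 difference of 0.33. Over all genes 46.6% were higher, with a median of -0.02. Selp (P-selectin, released to the endothelial surface and also carried by platelets) differed by 1.04 ± 0.45, Ccl2, a monocyte chemoattractant, by 1.13 ± 0.69, and Vcam1, a leukocyte adhesion molecule, by 0.33 ± 0.22 (limma's adjusted p = 0.836 for Selp). The summed signal of the list was 0.75 to 0.87 in control, 0.63 to 2.12 in depletion and 0.61 to 1.22 after repletion, and 4 of the 6 markers were above background on all arrays. In repletion against depletion 1 was higher and 5 lower, with a median of -0.34, where 58.3% of all genes were higher. Leukocyte and red blood cell markers had values of the same sign in depletion: 10 of 11 and 4 of 4 were higher than in control, with medians of 0.48 and 0.87 and 0 called, among them Aif1, a macrophage marker, at 0.58 ± 0.24 and Hbb, the beta globin, at 0.84 ± 0.35. Their part in the endothelial values was not tested.

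The other 35 endothelial markers were divided, 17 higher and 18 lower in depletion against control (median -0.0028 beside -0.02 over all genes). In repletion against depletion 13 were higher and 22 lower, 37.1% higher beside 58.3% of all genes, with a median of -0.05 beside 0.03, and 0 passed in either comparison. In repletion against control 17 were higher and 18 lower. Calcrl, the adrenomedullin receptor subunit, differed by -0.50 ± 0.18 in depletion minus control and by 0.47 ± 0.16 in repletion minus depletion, comparisons that share the depletion arrays. Gpihbp1, which anchors lipoprotein lipase on capillaries, differed by -0.62 ± 0.27 and S1pr1, a sphingosine phosphate receptor, by 0.32 ± 0.13 in repletion minus depletion and depletion minus control. None passed.

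Over 14 arrays with slide means removed, the named gene most like Tie1 was Ramp2, the partner of Calcrl at the adrenomedullin receptor (Pearson's r 0.905). For Angpt1 it was Rnf130 (0.931), for Angpt2 Fbxl8 (0.816), for Tek Prr14 (0.953), for Vegfa Vsnl1 (0.935), for Kdr Rhod (0.867), for Flt1 Eif4e (0.975), for Pecam1 Rgs4 (0.905), for Cdh5 Egr3 (0.954) and for Vwf Kifc1 (0.956). These are the highest of up to 14617 values, over few arrays that share slides, and describe likeness only. Any gene with a provisional name (such as LOC or RGD) was left out of the ranking.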
